A study of Mus musculus with 6 samples.

Results

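The genes described here are 35 genes of fatty acid and cholesterol synthesis, chosen by symbol out of the 48577 genes counted in sorted mouse lung cells. The fatty acid branch held 16 of them and the sterol branch 19. The study sorted lung epithelial cells of Miwi2-tdTomato mice, in which a red fluorescent protein reports Piwil4, the gene of the Piwi protein MIWI2. The tdTomato-positive group was 3 libraries of cells that carried EpCAM, lacked the leukocyte antigen CD45 and were red. The tdTomato-negative group was 3 libraries from the same EpCAM gate that were not red. Every animal was C57BL/6 and carried the reporter allele, each of 3 mice gave 1 library to each group, and ages are not given in the sources used here. The labels call both fractions multiciliated cells, but no gate for cilia is named, and the negative fraction also held transcripts of alveolar type 2 cells.

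Cells make fatty acids from citrate. ATP citrate lyase (Acly) releases acetyl-CoA in the cytosol, acetyl-CoA carboxylase (Acaca) turns it into malonyl-CoA, and fatty acid synthase (Fasn) joins these units into palmitate, which elongases and desaturases then modify. Cholesterol starts from the same acetyl-CoA and runs through mevalonate and squalene to lanosterol. The branches share regulators, since the SREBP transcription factors, encoded by Srebf1 and Srebf2, are held in the endoplasmic reticulum by Scap and the Insig proteins until sterols run low. SREBP-1c is best known for fatty acid genes and SREBP-2 for sterol genes. In the lung, alveolar type 2 cells use new fatty acids for the phospholipid of surfactant.

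The promoter letters describe the members beyond their names. The table of RefSeq start sites used here (GRCm38.p6) held 29 of the 35. The 250 bases before each start were searched on both strands for 4 motifs. These were the CCAAT box CCAAT, which NF-Y binds, the core TCACNCCAC of a sterol response element, the E-box CACGTG and the GC box GGGCGG. The CCAAT box was found for 15 of 16 sterol genes and 8 of 13 fatty acid genes, against 37.5% of the 27025 genes in the table. The GC box was found for 15 of 16 and 8 of 13, against 35.4%. The sterol response element core was found for Hmgcs1, Acsl1 and Mlxipl, against 1.22% of all genes, and the E-box for 5 sterol and 2 fatty acid genes, against 6.86%. A gene counted when any of its starts held the letters, and a match describes letters, not binding. The shares over all genes include genes that were not tested here, and a share over tested genes alone was not computed. The stretches below are those of the fatty acid genes Acsl4, Fasn and Fads2 and of the sterol genes Hmgcs1 and Insig1. Acsl4 and Fasn were lower in positive cells by at least 1 of the fits described below, and the 2 sterol genes passed neither fit. Fads2 entered the test only through its negative libraries, and its fits are no support for a difference. Capitals mark the sterol response element core, the E-box and the CCAAT box in either orientation, and each stretch reads 5′ to 3′ on the gene's strand. They lie at chrX:142390536-142390785 (minus strand), chr11:120824548-120824797 (minus), chr19:10101504-10101753 (minus), chr13:119690101-119690350 (plus) and chr5:28071162-28071411 (plus).
Acsl4: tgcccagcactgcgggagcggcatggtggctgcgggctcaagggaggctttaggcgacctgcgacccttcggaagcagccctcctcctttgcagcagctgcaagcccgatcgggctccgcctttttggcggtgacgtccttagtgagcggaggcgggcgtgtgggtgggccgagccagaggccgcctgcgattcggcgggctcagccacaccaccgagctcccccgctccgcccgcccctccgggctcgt
Fasn: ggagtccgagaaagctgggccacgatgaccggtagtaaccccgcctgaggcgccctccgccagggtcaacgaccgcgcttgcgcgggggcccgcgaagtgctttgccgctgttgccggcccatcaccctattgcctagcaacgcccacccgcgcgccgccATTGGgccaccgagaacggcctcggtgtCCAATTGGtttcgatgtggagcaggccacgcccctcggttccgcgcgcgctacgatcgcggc
Fads2: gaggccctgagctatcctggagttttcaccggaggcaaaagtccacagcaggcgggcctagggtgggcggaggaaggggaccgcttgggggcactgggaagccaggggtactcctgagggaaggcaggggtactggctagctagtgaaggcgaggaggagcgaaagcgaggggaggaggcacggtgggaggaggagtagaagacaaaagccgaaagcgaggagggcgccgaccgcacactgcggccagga
Hmgcs1: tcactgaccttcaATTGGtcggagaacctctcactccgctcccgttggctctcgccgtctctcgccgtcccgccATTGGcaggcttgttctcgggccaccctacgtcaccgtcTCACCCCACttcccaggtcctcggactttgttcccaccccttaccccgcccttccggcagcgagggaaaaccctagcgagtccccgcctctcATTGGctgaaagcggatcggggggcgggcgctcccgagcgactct
Insig1: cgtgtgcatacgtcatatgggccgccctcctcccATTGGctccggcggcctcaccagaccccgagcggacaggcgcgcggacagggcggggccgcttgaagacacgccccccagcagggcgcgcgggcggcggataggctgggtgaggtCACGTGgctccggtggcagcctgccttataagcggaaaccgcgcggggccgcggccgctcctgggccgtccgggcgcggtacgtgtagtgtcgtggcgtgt
Fasn held 3 CCAAT boxes, of which a pair overlaps at 62 and 59 bases before the start. The stretches of Acsl4 and Fads2 held none of the capitalised motifs. In Hmgcs1 the sterol response element core began 137 bases before the start and lay among 3 CCAAT boxes. Insig1 held 1 E-box and 1 CCAAT box. Scd1, Scd2, Fads1, Sqle, Fdps and Fdft1 had no match in the table used and are missing from the motif counts.

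Counts in genes were 5602309 to 5763317 in the positive and 5330584 to 6326395 in the negative libraries, of which the 35 genes took 0.18% to 0.21% and 0.199% to 0.281%. Levels are CPM, reads scaled to library size with TMM factors, and 3 reads correspond to 0.475 to 0.507 CPM in positive and 0.576 to 0.585 CPM in negative libraries. Those floors cover counting error only. Piwil4 was at 101, 95.7 and 111 CPM in positive against 44.0, 29.97 and 45.6 CPM in negative libraries of mice 1, 2 and 3 (edgeR adjusted p = 0.012). Reads of the tdTomato row appeared in the positive libraries only, at 37, 16 and 18, which describes the marker used for the sort. With 1 library or 1 mouse left out, the call of Piwil4 held in 3 of 9 runs. On the first principal component the positive library of mouse 1 lay at -79.4, against -7.80 to 35.2 for the other libraries. Of the 35 genes, 34 passed the filter on low counts. Mvd, the mevalonate diphosphate decarboxylase, did not, with 1, 6 and 26 reads in positive and 11, 5 and 7 reads in negative libraries of mice 1, 2 and 3.

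The calls among these genes were all in the fatty acid branch and all lower in positive cells. In that branch Scd1 and Acsl4 passed the edgeR threshold, an adjusted p under 0.05 over all 13175 genes tested. That is 2 of 16, where 0.577% of all genes tested were called lower and 0.0455% higher. In the sterol branch 0 of 18 were called. With the mouse as a block, which compares the fractions within each animal, 5 of 16 fatty acid genes fell (Scd1, Acsl4, Fasn, Acaca and Fads2) and 0 of 18 sterol genes were called, where 1.79% of all genes were called lower and 1.36% higher. Of these 5, Fads2 passed the filter on low counts only through its negative libraries. The sterol count was 0 also with DESeq2 and limma-voom, which called 1.86% and 0.653% of all genes. At an unadjusted p under 0.05, edgeR without the block had 8 of 16 fatty acid genes and 1 of 18 sterol genes, where 10.7% of all genes passed. With the block it had 9 of 16 and 4 of 18, where 15.9% of all genes passed. Fads2 is among the fatty acid genes of both counts. The difference between the branches was not tested. When libraries or mice were left out in turn, in 9 runs, the fatty acid count was 2 without the positive library of mouse 2, 0 without mouse 1, and 1 in each of the other 7. With the block it was 5 without mouse 1, 3 without mouse 2 (Scd1, Fasn and Acsl4) and 1 without mouse 3 (Scd1). In sorted pools, fewer cells of a type and less RNA per cell cannot be told apart. Alveolar type 2 transcripts, whose values are given with the other markers, were lower in the same positive libraries.

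The median log2 fold change, positive over negative, was -0.50 for the fatty acid branch, -0.18 for the sterol branch and 0.03 for all genes tested. Within mice 1, 2 and 3 the fatty acid medians were -0.59, -0.49 and -0.48 and the sterol medians -0.23, -0.08 and -0.12. Scaling by library size alone moved the median of all genes to 0.286, that of the fatty acid branch to -0.257 and that of the sterol branch to 0.049, so the sterol median changed sign while both stayed below all genes. The fatty acid median was -0.324 without the positive library of mouse 2. The sterol median was -0.016 without that library, -0.021 and -0.284 without the negative library of mouse 3 and 2, -0.106 without the negative library of mouse 1 and -0.121 without mouse 1. Groups did not overlap, with every positive library lower, for 7 of 16 fatty acid genes and 1 of 18 sterol genes, against 9.02% of all genes. Every positive library was higher for 0 of 16 and 1 of 18, against 8.29%. Of the fatty acid genes, 8 were lower in all 3 mice and 2 higher. Of the sterol genes, 6 were lower and 2 higher. The shares over all genes were 18.8% lower and 19.8% higher. Fads2, which passed the filter on low counts only through its negative libraries, is among the 7 without overlap and the 8 lower in all 3 mice.

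**Figure D1:**
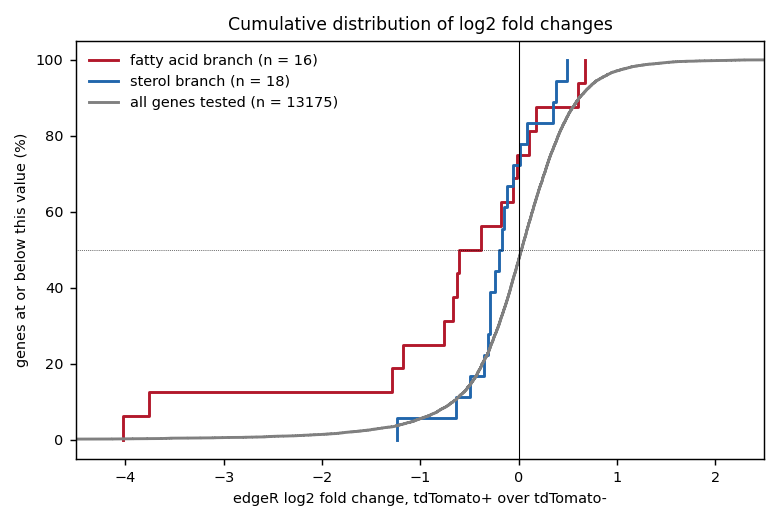
Cumulative share of genes (vertical axis, %) at or below each edgeR log2 fold change (horizontal axis, tdTomato-positive over tdTomato-negative) for the fatty acid branch, the sterol branch and all 13175 genes tested. The fatty acid curve crosses 50% at about its median of -0.50, left of the sterol branch at -0.18 and of all genes at 0.03.

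Summed over its 16 genes, the fatty acid branch was at 853, 873 and 856 CPM in positive libraries of mice 1, 2 and 3, against 1784, 1688 and 1824 CPM in negative ones. The groups did not overlap, and the log2 ratio was -1.06, -0.95 and -1.09 within the mice. Scd1 held a large part of this. Without it, a choice made after its values were seen, the other 15 genes summed to 814, 788 and 827 CPM in positive and 1071, 1055 and 1089 CPM in negative libraries, a log2 ratio of -0.40, -0.42 and -0.40. The 19 sterol genes summed to 897, 806 and 1038 CPM in positive and 932, 726 and 1150.4 CPM in negative libraries. These groups overlapped, and mouse 2 went the other way from mice 1 and 3.

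**Figure D2:**
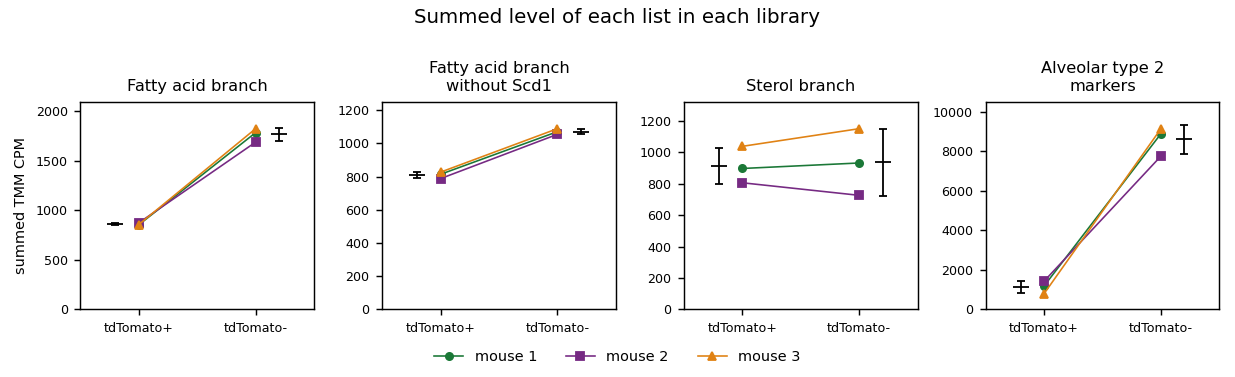
Summed TMM CPM (vertical axes from 0) of the fatty acid branch, the same branch without Scd1, the sterol branch and 17 alveolar type 2 markers in the 3 tdTomato-positive and 3 tdTomato-negative libraries. Lines join the libraries of 1 mouse and black bars give mean ± SD (n = 3 each). The sums without overlap are those of the fatty acid branch, at most 873 CPM in positive and at least 1688 CPM in negative libraries, the same branch without Scd1, and the alveolar markers, while the sterol sums overlap.

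Fasn, Acaca, Acly and Me1, which serve the synthesis of palmitate, each had a lower mean in positive cells. Fasn, on GRCm38 chromosome 11 at 120805846 to 120824547, had 42.7, 79.9 and 64.0 CPM in positive against 183, 114 and 125 CPM in negative libraries of mice 1, 2 and 3. All 3 positive libraries lay below all negative ones, and mouse 1 showed the widest gap. This is -1.18 ± 0.257 in log2 units (SE), with an edgeR adjusted p of 0.0758, or 0.0125 with the block. Acaca, on the same chromosome at 84129672 to 84401651, had 37.2, 39.6 and 29.2 CPM in positive and 56.3, 65.1 and 58.3 CPM in negative libraries, again without overlap. The difference was -0.76 ± 0.205 in log2 units (SE), with an edgeR adjusted p of 0.187, or 0.041 with the block. Acly was at 27.0, 44.9 and 41.0 CPM in positive and 46.6, 63.4 and 70.0 CPM in negative libraries. These groups did not overlap either, but Acly passed neither fit (edgeR adjusted p = 0.362, and 0.0702 with the block). Me1, the malic enzyme that supplies NADPH for synthesis, was at 18.7, 27.8 and 18.1 CPM in positive and 28.5, 34.4 and 37.2 CPM in negative libraries. The groups did not overlap, but the positive library of mouse 2 came within 1 CPM of the negative library of mouse 1, and Me1 passed neither fit (edgeR adjusted p = 0.425, and 0.198 with the block).

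Among the desaturases, which set double bonds into the chain, Scd1 and Scd2 went apart. Both encode stearoyl-CoA desaturases that make oleate and palmitoleate, and they lie close together on chromosome 19 (Scd1 at 44394455 to 44407879 on the minus strand, Scd2 at 44293674 to 44306864 on the plus strand). Scd1 was at 39.2, 85.6 and 28.6 CPM in positive against 713, 633 and 735 CPM in negative libraries of mice 1, 2 and 3. The groups lay far apart, with the positive library of mouse 2 the highest and its negative partner the lowest of their groups. Scd1 fell by 3.76 ± 0.386 in log2 units (SE), with an edgeR adjusted p of 0.00471, or 0.0043 with the block, and was lower in 3 of 3 mice. Without the block, the adjusted p was 0.0523 when the positive library of mouse 1 was left out and 0.144 when all of mouse 1 was. With the block, Scd1 was called without each mouse in turn. Scd2 was at 152, 166 and 166 CPM in positive and 153, 183 and 153 CPM in negative libraries, so the groups overlapped. The log2 fold change was -0.02 with a 95% interval of -0.37 to 0.33 (edgeR adjusted p = 0.976), and 0.248 with library size alone.

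Per kilobase of exon, Scd1 was 0.288, 0.577 and 0.193 times Scd2 in positive libraries and 5.19, 3.86 and 5.35 times Scd2 in negative libraries of mice 1, 2 and 3. Scd2 thus had the higher level of the pair in every positive library and Scd1 in every negative one. Reads that match both genes alike, or the neighbouring Scd3 and Scd4, may be missing from each count. Among all 35 genes, ordered by RPKM (mean CPM per kilobase), Scd1 ranked 12 at 10.4 RPKM in positive cells and 1 at 142 RPKM in negative cells, while Scd2 ranked 4 at 29.5 RPKM and 6 at 29.9 RPKM.

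Fads1 and Fads2 encode the front-end desaturases of polyunsaturated fatty acids and also lie on chromosome 19. Fads2 (10062765 to 10101746) had 2, 1 and 0 reads in positive against 14, 12 and 20 reads in negative libraries of mice 1, 2 and 3. Every positive library was below the floor of 3 reads, and the gene entered the test only through its negative libraries. The summed reads gave a ratio of 0.0545, with a counting interval of 0.0108 to 0.17 (exact binomial, 95%). That interval pools the reads of the 3 mice and leaves out the spread between mice. The edgeR adjusted p was 0.0774, or 0.0375 with the block. Both p-values describe a gene selected by its negative libraries and are no support for a difference. Fads1 was at 24.3, 9.49 and 21.8 CPM in positive and 23.9, 19.98 and 28.7 CPM in negative libraries (edgeR adjusted p = 0.729). Those groups overlapped, and mouse 2 was the lowest in both.

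Acsl enzymes activate fatty acids to CoA esters, and of the 3 members Acsl4 alone was called. Acsl4 (GRCm38 chromosome X, 142317993 to 142390535), which prefers arachidonate and similar polyunsaturated acids, was at 89.0, 59.5 and 92.7 CPM in positive against 165, 205 and 219.6 CPM in negative libraries of mice 1, 2 and 3. The groups did not overlap, and mouse 2 showed the widest gap. Acsl4 fell by 1.29 ± 0.207 in log2 units (SE), with an edgeR adjusted p of 0.0179, or 0.000289 with the block, and was lower in 3 of 3 mice. Over the 9 runs without the block that left out libraries or mice, the value was -1.496 to -1.079. In these runs the call was lost in 7, with adjusted p up to 0.201. The 2 runs that kept it left out the positive library of mouse 1 and that of mouse 2, and with library size alone the adjusted p was 0.0523. With the block, Acsl4 was called without mouse 1 and without mouse 2, but not without mouse 3. Acsl1 averaged 119.5 ± 20.9 CPM in positive and 111 ± 17.1 CPM in negative libraries, and Acsl5 82.0 ± 12.3 and 93.1 ± 7.46 CPM in the same order (SD, n = 3 each). Their 95% intervals were -0.32 to 0.54 and -0.58 to 0.21 on the log2 scale (edgeR adjusted p = 0.874 and 0.753). Differences between Acsl4 and the other two were not tested.

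Elongases passed neither fit. Elovl1, which extends very long saturated chains, was at 26.9, 23.4 and 23.2 CPM in positive and 51.8, 26.1 and 34.5 CPM in negative libraries (edgeR adjusted p = 0.463). The groups came close, with 26.9 CPM in a positive library just above 26.1 CPM in a negative one. Elovl5, an elongase of polyunsaturated acids, averaged 105 ± 19.97 CPM in positive and 109 ± 16.2 CPM in negative libraries (SD, n = 3 each; edgeR adjusted p = 0.931). Elovl6, which turns palmitate towards stearate, was at 9.63, 5.06 and 9.69 CPM in positive and 2.72, 7.30 and 6.04 CPM in negative libraries (edgeR adjusted p = 0.685). It was higher in positive cells of mice 1 and 3 and lower in those of mouse 2.

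**Figure D3:**
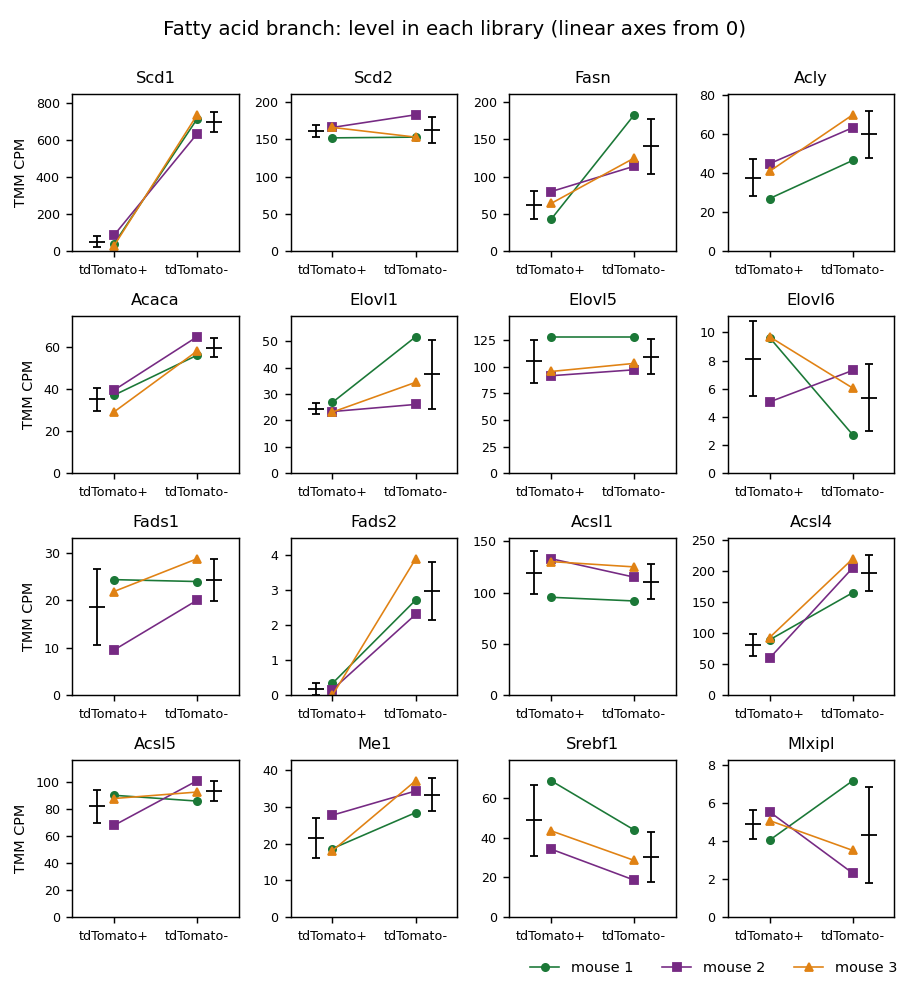
Level of each of the 16 fatty acid branch genes in each library (vertical axes, TMM CPM from 0), tdTomato-positive on the left and tdTomato-negative on the right. Coloured lines join the libraries of 1 mouse and black bars give mean ± SD (n = 3 each). Scd1, Fasn, Acly, Acaca, Acsl4, Me1 and Fads2 slope up to the negative side in all 3 mice without overlap, while Scd2 is level at about 152 to 183 CPM and Srebf1 slopes the other way. Every positive library of Fads2 is below the floor of 3 reads.

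The transcription factor genes of both branches had higher means in positive cells, and none passed either fit. Srebf1 was at 68.6, 34.2 and 43.4 CPM in positive and 43.8, 18.6 and 28.5 CPM in negative libraries of mice 1, 2 and 3, or 0.68 ± 0.340 in log2 units (SE; edgeR adjusted p = 0.518, and 0.0802 with the block). The groups overlapped, but each mouse was higher in its positive library. Gene counts do not separate the SREBP-1a and SREBP-1c transcripts of Srebf1. Srebf2 was at 58.1, 77.8 and 56.4 CPM in positive and 56.6, 37.8 and 42.9 CPM in negative libraries (edgeR adjusted p = 0.477, and 0.268 with the block). Mouse 1 was nearly equal and mouse 2 far apart. Mlxipl, which encodes the glucose-responsive factor ChREBP, was low, at 4.05, 5.54 and 5.08 CPM in positive and 7.18, 2.31 and 3.51 CPM in negative libraries (edgeR adjusted p = 0.926).

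The proteins that hold or escort the SREBPs had lower means in positive cells, though Scap turned to 0.08 in log2 units with library size alone, and none passed either fit. Insig1, itself a known SREBP target, was at 69.2, 68.3 and 81.0 CPM in positive and 79.0, 77.2 and 150.3 CPM in negative libraries of mice 1, 2 and 3 (edgeR adjusted p = 0.538). The negative library of mouse 3 was far above the other five. Insig2 averaged 41.8 ± 16.4 CPM in positive and 51.0 ± 10.9 CPM in negative libraries, and Scap 20.8 ± 5.64 and 23.4 ± 5.28 CPM in the same order (SD, n = 3 each; edgeR adjusted p = 0.757 and 0.877). Of the exon bases of Scap, 13.2% are shared with a gene on the other strand.

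The early sterol steps, from acetyl-CoA units to squalene, held the most abundant gene per length in positive cells. Hmgcs1, which makes HMG-CoA, was at 152, 152 and 221 CPM in positive and 148, 137 and 236 CPM in negative libraries of mice 1, 2 and 3. Mouse 3 was the highest in both groups, and the groups overlapped (log2 fold change 0.01, 95% interval -0.51 to 0.53; edgeR adjusted p = 0.993). At 38.1 RPKM in positive and 37.8 RPKM in negative cells it ranked 1 and 2 of the 35 genes. Idi1, which interconverts the isoprene units, was at 47.0, 39.4 and 48.6 CPM in positive and 36.5, 41.5 and 62.4 CPM in negative libraries (edgeR adjusted p = 0.951). Fdft1, the squalene synthase, was at 24.8, 10.4 and 30.3 CPM in positive and 31.0, 15.8 and 37.0 CPM in negative libraries (edgeR adjusted p = 0.795). It was lower in the positive library of each mouse, by less than the spread between mice. The mevalonate kinases Mvk and Pmvk and the farnesyl diphosphate synthase Fdps were low, at means of 3.97 ± 1.88, 7.95 ± 4.02 and 2.53 ± 0.692 CPM in positive and 3.03 ± 0.917, 9.89 ± 2.77 and 3.10 ± 1.41 CPM in negative libraries (SD, n = 3 each), with edgeR adjusted p of 0.842, 0.834 and 0.887. Reads of Fdps and Fdft1 may be undercounted, since 26.7% and 18.3% of their exon bases are shared with another gene.

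Squalene epoxidase was the sterol gene whose positive libraries all lay above the negative ones. Sqle was at 188, 177 and 192 CPM in positive against 144, 132 and 164 CPM in negative libraries of mice 1, 2 and 3. The difference was 0.35 ± 0.158 in log2 units (SE), and it passed neither fit (edgeR adjusted p = 0.466, and 0.246 with the block). Lss, which closes the ring of lanosterol, was at 104, 73.6 and 94.5 CPM in positive and 116, 43.4 and 97.3 CPM in negative libraries (edgeR adjusted p = 0.941). Cyp51, the lanosterol demethylase, was at 34.3, 28.2 and 43.5 CPM in positive and 54.5, 40.1 and 70.0 CPM in negative libraries. It was lower in the positive library of each mouse by a similar step, or -0.64 ± 0.258 in log2 units (SE; edgeR adjusted p = 0.42, and 0.105 with the block).

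Of the late steps, which trim lanosterol to cholesterol, none passed either fit. Msmo1, a methylsterol oxidase, was at 106, 70.4 and 124 CPM in positive and 119, 71.5 and 137 CPM in negative libraries of mice 1, 2 and 3 (edgeR adjusted p = 0.90). Nsdhl, which takes part in removing the methyl groups, was at 17.9, 16.8 and 13.2 CPM in positive and 21.7, 17.9 and 16.8 CPM in negative libraries, with an edgeR adjusted p of 0.797. Hsd17b7, a reductase of the same steps, averaged 9.98 ± 6.52 CPM in positive and 11.5 ± 4.73 CPM in negative libraries (SD, n = 3 each), with an edgeR adjusted p of 0.922. These groups overlapped, as did those of Msmo1. Sc5d, a sterol desaturase, averaged 16.4 ± 2.22 CPM in positive and 18.2 ± 4.70 CPM in negative libraries, and edgeR gave an adjusted p of 0.889. Dhcr7, the last reductase of its route, had 1, 14 and 16 reads in positive and 22, 21 and 18 reads in negative libraries (edgeR adjusted p = 0.579). Its groups did not overlap, and the positive library of mouse 1, with a single read, lay far below the other five.

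**Figure D4:**
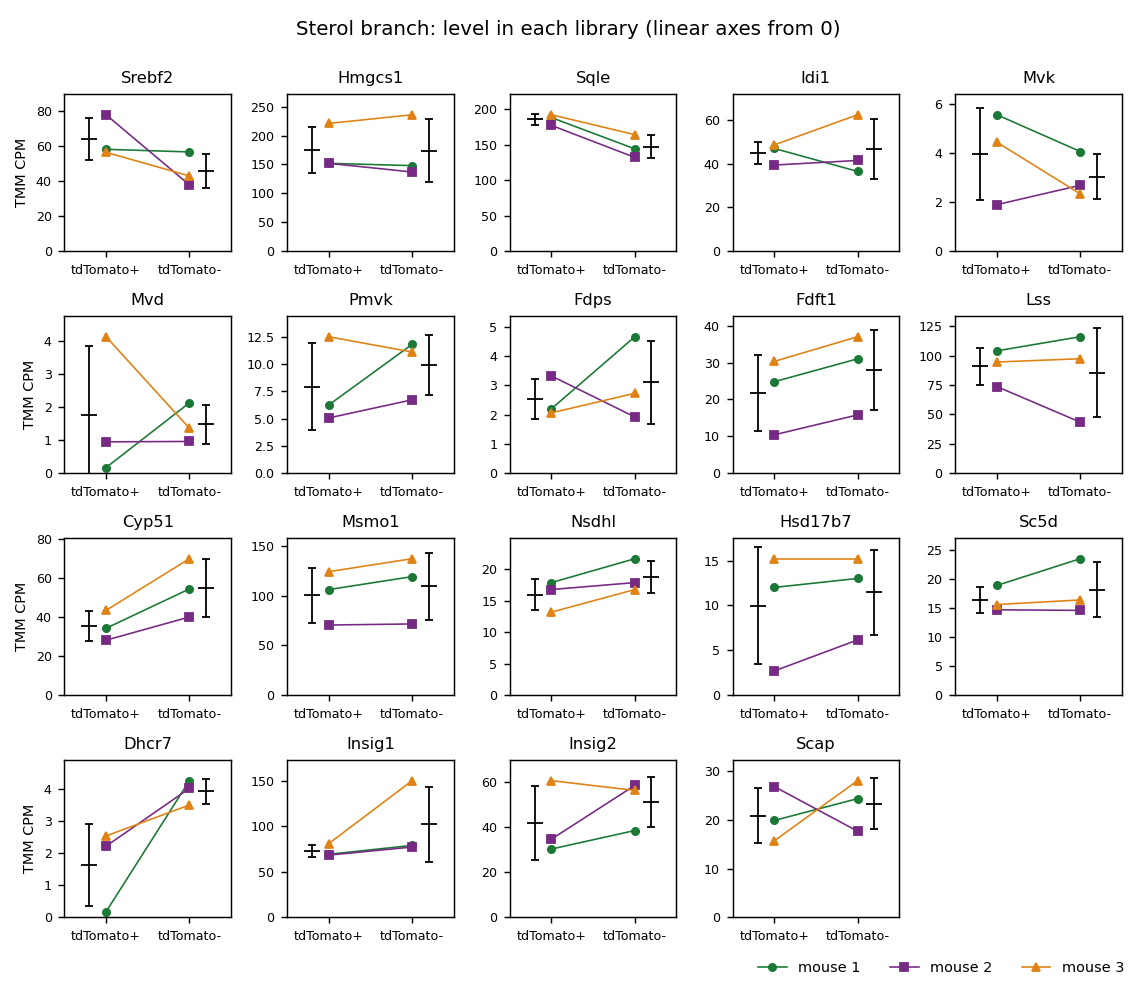
Level of each of the 19 sterol branch genes in each library (vertical axes, TMM CPM from 0), tdTomato-positive on the left and tdTomato-negative on the right. Coloured lines join the libraries of 1 mouse and black bars give mean ± SD (n = 3 each). The groups overlap for all but Sqle and Dhcr7, and for some genes, such as Msmo1 between 70.4 and 137 CPM, the lines run near level with mouse 2 low and mouse 3 high in both fractions.

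In much of the sterol branch the mice kept their order across the fractions, a pattern noticed after the values were seen and not tested. The 3 mice stood in the same order in both fractions for 9 of 18 sterol genes, 2 of 16 fatty acid genes and 24.3% of all genes tested. Mouse 2 was the lowest in both fractions for 9 of 18 sterol genes (Sqle, Pmvk, Fdft1, Lss, Cyp51, Msmo1, Hsd17b7, Sc5d and Insig1) and 12.8% of all genes. Mouse 3 was the highest in both for 8 of 18 and 12.3%.

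**Figure D5:**
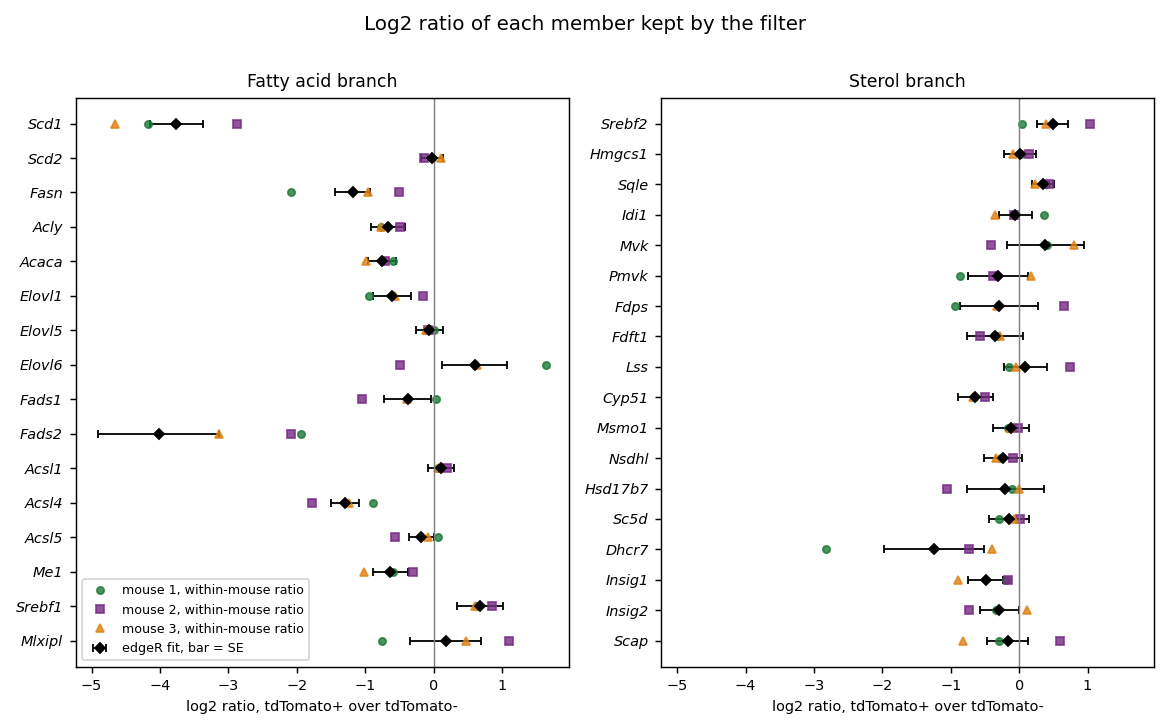
Log2 ratio of tdTomato-positive over tdTomato-negative (horizontal axes) for the 34 genes kept by the filter. Black diamonds are edgeR log2 fold changes with their SE, and coloured points the ratio within each mouse with 0.5 CPM added. Fads2, Scd1, Acsl4, Dhcr7 and Fasn lie furthest left, at -4.02, -3.76, -1.29, -1.24 and -1.18, where the value of Fads2 rests on 3 positive reads, and most sterol genes lie within 0.5 of 0.

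The wider pathway was described by other lists. Of 18 other fatty acid synthesis genes kept, none was called in either edgeR fit, and 2 had an unadjusted p under 0.05 without the block, against 10.7% of all genes. Their median log2 fold change was -0.05, and the most abundant, Acsl3, averaged 530.1 ± 255 CPM in positive and 546 ± 184 CPM in negative libraries (SD, n = 3 each). Of 14 other sterol synthesis genes none was called and 3 had an unadjusted p under 0.05 against the same 10.7%, with a median of 0.32. Their most abundant, the reductase Cyb5r3, averaged 192 ± 23.3 CPM in positive and 141 ± 70.5 CPM in negative libraries (SD, n = 3 each). Of 22 glycerolipid and phosphatidylcholine synthesis genes, Lpcat1 alone was called, lower in both fits. Over all genes tested, 0.577% were called lower without the block and 1.79% with it. Lpcat1, which remodels the surfactant phospholipid, was at 7.77, 16.8 and 10.6 CPM in positive and 128, 128 and 134 CPM in negative libraries (edgeR adjusted p = 0.000223). In that list 5 of 22 had an unadjusted p under 0.05, against 10.7% of all genes. Its median was 0.07, and its most abundant gene, the choline kinase Chka, averaged 310.4 ± 31.3 CPM in positive and 321 ± 76.5 CPM in negative libraries (SD, n = 3 each). Of 19 fatty acid oxidation genes none was called in either fit and 3 had an unadjusted p under 0.05, against 10.7% of all genes, with a median of 0.04.

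The markers listed for alveolar type 2 cells were lower in positive libraries as well. The 17 markers summed to 1186, 1429 and 797 CPM in positive and 8899, 7764 and 9152 CPM in negative libraries of mice 1, 2 and 3, and none was at 0 in all positive libraries. Of the 17, 8 fell without the block and 12 with it, where 0.577% and 1.79% of all genes tested were called lower. Among them Sftpc, surfactant protein C, was at 79.9, 165 and 90.04 CPM in positive and 1264, 1261 and 1354 CPM in negative libraries (edgeR adjusted p = 0.000223). Dram1, Lyz2 and Sftpd fell as well (edgeR adjusted p = 0.000174, 0.000448 and 0.00209). Abca3, an alveolar type 2 gene that was not on the list, was at -0.502 in log2 units and was not called without the block (edgeR adjusted p = 0.439). The log2 ratio of the marker sum was -2.91, -2.44 and -3.52 in mice 1, 2 and 3, and that of Scd1 was -4.17, -2.88 and -4.66, both nearest to 0 in mouse 2. The ratio of Acsl4 was -0.89, -1.77 and -1.24, widest in mouse 2, and that of Fasn -2.09, -0.51 and -0.96. The part of alveolar type 2 transcripts in these results was not tested.

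Multiciliated cell markers summed to 11567 to 13566 CPM in positive and 10579 to 10941 CPM in negative libraries, with 0 of 17 called without the block and 3 (Foxj1, Tppp3 and Cfap126) higher with it. Beside this list and those that follow, 0.577% of all genes tested were called lower and 0.0455% higher without the block. With the block these shares were 1.79% and 1.36%. Sec14l3, the most abundant of them, averaged 4996 ± 662 CPM in positive and 4161 ± 232 CPM in negative libraries (SD, n = 3 each). Club cell markers summed to 8666 to 22163 and 4962 to 8432 CPM in the same order, without overlap, with 0 of 12 called and 5 higher with the block, among them Cbr2, Cyp2f2 and Scgb3a1. Scgb1a1 led that list, at 12402, 13687 and 2240.2 CPM in positive and 1969, 3375 and 745 CPM in negative libraries (edgeR adjusted p = 0.479, and 1.36e-06 with the block). Leukocyte markers summed to 37.8 to 229 CPM in positive and 181 to 1311 CPM in negative libraries. Within mice 1, 2 and 3 the log2 ratio of this sum was -2.71, -2.52 and -2.26. The median ratio of the 6 leukocyte markers kept was -1.44, -0.96 and 0.01, so mouse 3 showed no drop by that measure. Lyz1, a close copy of Lyz2 with which it may share reads, was the most abundant and made up most of the sum in each negative library. It was at 22.5, 178 and 11.8 CPM in positive and 307, 1185 and 157 CPM in negative libraries. None of 6 was called without the block, while Ptprc and Lyz1 fell with it. Mesenchymal and adipocyte markers summed to 9.21 to 50.3 CPM in positive and 29.4 to 87.9 CPM in negative libraries, none of 6 was called in either fit, with Dcn the most abundant over all 6 libraries together, and the adipocyte gene Adipoq had 0 reads in all 6 libraries. Alveolar type 1 markers summed to 326 to 414 CPM in positive and 321 to 392 CPM in negative libraries, with Emp2 the most abundant. Of these, 0 of 9 were called and 2 (Ager and Vegfa) were lower with the block. Their median log2 fold change was -0.86. Without overlap 4 of 9 were lower and 0 higher, against 9.02% and 8.29% of all genes. The part of these marker lists in the lipid gene results was not tested.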

How the data were processed

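RNA of sorted lung epithelial cells was sequenced in 6 libraries from 3 mice. The authors deposited raw read counts per gene symbol, 48577 genes and 5 HTSeq summary rows per library. Tools in the submitters' processing notes are cutadapt 1.7.1, FastQC, HTSeq, STAR 2.4.2a and DESeq2, with mm10 and GRCm38.p4 as builds. Per the labels' protocols, total RNA was pre-amplified before library construction (Ovation, then TruSeq Nano). Whether counting used strand is not given in the sources used here. Reads in exon bases shared with a gene on the other strand may therefore be missing from both counts. Of the 35 genes, 15 share exon bases with another gene in GENCODE M21, 4 of them at least 10% (Hmgcs1, Fdps, Fdft1 and Scap). The summary rows entered neither library sizes nor tests. They held 41.0% to 49.4% of counted rows as reads in no gene, 1.31% to 1.99% as ambiguous and 8.26% to 12% as reads aligned to several places. Such reads may be missing from close copies such as the Scd genes.

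Genes were kept by filterByExpr (count minimum 10) and tested two-sided with edgeR 4.0.16 (robust quasi-likelihood, R 4.3.3). P-values were adjusted by Benjamini-Hochberg over all 13175 genes kept. Within-mouse log2 ratios used 0.5 CPM as pseudocount. The labels tie both libraries of a number to 1 mouse, so the numbers pair the samples. The deviations from the group means had a correlation of 0.263, 0.254 and 0.346 between the libraries of mice 1, 2 and 3. The model had no mouse term, and the fit with the mouse as replicate block is given where it changes a call. Whether the 3 mice of a group shared a sort or a library batch is not given in the sources used here. Alternatives were other scalings and filters, DESeq2 1.42.0, limma-voom (limma 3.58.1), the block, and leaving out each library and mouse. The block without each mouse was added after seeing the data. Fits were also run on simulated counts that gave every gene the same dispersion. That setting is simpler than these data, so the run does not show how the fits perform here. The members and lists were chosen with earlier results of these data known, so no p over a list is given. The 35 genes are all named, as are, of each other list, its most abundant gene and up to 4 genes called in either fit, though not every gene under this rule is reported here. Adipoq and Abca3 were named after their values were seen.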

Additional observations from a re-analysis of the deposited data

How the results depend on the processing

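Of the alternatives tried, all left the sterol branch with 0 genes called, and all kept the fatty acid median below 0. With library size alone 1 fatty acid gene was called, the fatty acid median was -0.257 and the sterol median 0.049. The log2 fold changes of Scd2 (0.248), Elovl5 (0.179), Acsl5 (0.074), Idi1 (0.193), Msmo1 (0.108), Nsdhl (0.013), Hsd17b7 (0.018), Sc5d (0.09) and Scap (0.08) then turned positive, where the median of all genes moved to 0.286. With no expression filter 413 genes were called, 4 of them fatty acid genes, and with DESeq2 245 and 4 (Scd1, Fasn, Fads2 and Acsl4 both times). Fads2 had 3 reads over all positive libraries, and its calls are no support for a difference. A filter of 1 CPM in 3 libraries kept 14649 genes and called 77, Scd1 and Acsl4 among them. With the replicate block 415 genes and 5 fatty acid genes were called, and the block changed the call of no sterol gene. With the block and without 1 mouse, 633, 380 and 59 genes were called without mouse 1, 2 and 3, among them 5, 3 and 1 fatty acid genes.

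Leaving out 1 library or 1 mouse gave 22 to 113 genes called, 0 to 2 fatty acid genes, a fatty acid median of -0.557 to -0.324 and a sterol median of -0.284 to -0.016. Piwil4 was at 1.194 to 1.468 on the log2 scale, called in 3 of 9 runs, and tdTomato at 6.935 to 7.685, a fitted value that depends on the prior count. Members near 0 changed sign in some of these runs: Scd2 (-0.085 to 0.068), Elovl5 (-0.224 to 0.068), Acsl1 (-0.009 to 0.251), Mlxipl (-0.226 to 0.844), Hmgcs1 (-0.194 to 0.293), Idi1 (-0.259 to 0.202), Fdps (-0.788 to 0.19), Lss (-0.232 to 0.37), Msmo1 (-0.352 to 0.081), Hsd17b7 (-0.643 to 0.253), Sc5d (-0.284 to 0.083) and Scap (-0.557 to 0.153). The cause of these changes was not tested, and runs without a mouse have 2 libraries a group. Depth limits Fads2, Dhcr7, Mvd, Mvk and Fdps, whose counts were low in every library.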
